A study of Homo sapiens with 6 samples.

Results

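The genes of creatine synthesis, uptake and phosphorylation were followed in a cultured human podocyte line: CKMT1A, CKMT1B, CKMT2, CKB, CKM, GAMT, GATM and SLC6A8. They were taken by gene symbol, as 8 of the 38648 genes in the tables, and 7 of them had enough counts to be among the 15381 genes tested. The family was selected on the measured counts of CKMT1B, already known to stand higher with PRDM16 in these libraries, so its difference between the groups is given as a description and supports nothing here. The cells were HPC, a line of podocytes, the epithelial cells that wrap the filtering capillaries of the kidney, with the genotype given as WT. All cultures were in high glucose and carried a lentivirus, either the negative control (NC) or one for overexpression of PRDM16, a zinc finger transcription factor known from brown fat, with 24 h in the titles. Each group had 3 libraries. It is not stated whether these were separate cultures, and the p-values therefore speak for the spread among these 6 libraries alone, possibly of technical origin. What drives PRDM16 in the vector, at which dose, in how many clones and at which glucose concentration is not given in the sources used here. Cultures in normal glucose were not analysed here.

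Creatine is made in a pair of steps. GATM joins arginine and glycine to guanidinoacetate, and GAMT then adds a methyl group from S-adenosylmethionine. In the body the first step runs largely in the kidney tubule and the second largely in the liver, and other cells take creatine up from blood through SLC6A8. Creatine kinases move a phosphate between ATP and creatine: CKB and CKM in the cytosol, with CKM the muscle form, and CKMT1 and CKMT2 in the space between the mitochondrial membranes, where CKMT1 is the ubiquitous form and CKMT2 that of striated muscle. The ubiquitous form is encoded by a pair of near-identical genes, CKMT1A and CKMT1B.

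The libraries held between 20147135 and 41280350 gene counts, the deepest being PRDM16 library 3. CPM is the count scaled to 1000000 per library, with totals adjusted by TMM factors, and 3 counts stand for 0.0717 to 0.156 CPM. Intervals and floors of this kind describe counting error alone, because copies made by PCR are not independent molecules. PRDM16 had 0 counts in each NC library and 11, 18 and 24 in the PRDM16 libraries. Of the podocyte markers listed, 3 of 10 reached a mean of 1 CPM. Their summed level was 323 to 412 CPM with NC and 289 to 318 with PRDM16. The largest part was CD2AP, with 184, 260 and 176 CPM with NC and 165, 144 and 175 CPM with PRDM16. Its log2 fold change of -0.35 was -0.15 without NC library 2, and -0.09 with the trend along gene length and GC content removed. Of the 4 podocyte markers tested, 2 were higher and 2 lower with PRDM16, with a median log2 fold change of 0.017. In the edgeR test described below 0 of the 4 passed, so the sums show no fall of the markers as a set. Proximal tubule markers summed to 3.47 to 4.04 CPM with NC and 3.05 to 3.75 with PRDM16, with LRP2 and SLC22A6 at 0 counts throughout. Muscle markers summed to 2.95 to 3.89 and 3.75 to 4.90 CPM, and 1 of 10 reached 1 CPM. Being bulk RNA, the libraries cannot tell fewer cells with a transcript from less of it per cell.

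The CKMT1 copies lie on chromosome 15 on the plus strand (hg38, as in the deposited tables), CKMT1B at 43592857 to 43599406 and CKMT1A at 43692644 to 43699222, and how reads were shared between them limits every value of either copy. Their GENCODE v29 transcripts (GRCh38) are 1779 bases each in 10 exons and differ at 4 bases, an identity of 99.8%. Counting from 1 at the 5′ end of the transcript, with the CKMT1B base first, A1448G and T1478C lie in the coding part of exon 9, each at the third base of its codon, and C1679A and C1733T in the 3′ UTR in exon 10. The 51 coding bases that hold both coding differences are shown. In the coding sequence of these transcripts, a read can tell the copies apart only there. The 51 bases lie in exon 9, at chr15:43598861-43598911 in CKMT1B and chr15:43698675-43698725 in CKMT1A (plus strand), with the differing bases in capitals.
CKMT1B: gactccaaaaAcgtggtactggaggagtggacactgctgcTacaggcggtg
CKMT1A: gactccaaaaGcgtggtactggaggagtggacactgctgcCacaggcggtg
Of all stretches of 50 bases in the CKMT1B transcript, 89.8% are identical in CKMT1A. The share is 86.3% for 100 bases and 82.8% for 150 bases, and 0% at each length for CKMT2, CKB and CKM. The read length is not given in the sources used here. More sequence is listed for CKMT1B in the deposited tables, 3281 bases against 2564 for CKMT1A. The differences and shares above cover the 1779 bases of the GENCODE transcripts alone, not all listed bases. One listed exon of CKMT1B spans 952 bases, 43597376 to 43598327, where CKMT1A has an exon of 135 bases at 43698014 to 43698148.

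The 250 bases before a RefSeq start of CKMT1B (GRCh38.p14, chr15:43593584-43593833, plus strand) follow, and those before the start of CKB (chr14:103522831-103523080, minus strand). CKB made up nearly all creatine kinase transcript as counted. The CKMT1B window lies between the first and second exons listed for the gene. Capitals mark the motifs searched on both strands. These were the GC box with the letters GGGCGG, the box that reads CCAAT, the core of the TATA box, which reads TATAAA, and a binding motif of oestrogen-related receptors with the letters AAGGTCA.
CKMT1B: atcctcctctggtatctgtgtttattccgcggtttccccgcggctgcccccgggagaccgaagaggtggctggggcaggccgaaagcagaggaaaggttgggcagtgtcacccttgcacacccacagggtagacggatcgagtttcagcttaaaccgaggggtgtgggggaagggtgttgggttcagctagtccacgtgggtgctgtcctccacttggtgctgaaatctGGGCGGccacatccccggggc
CKB: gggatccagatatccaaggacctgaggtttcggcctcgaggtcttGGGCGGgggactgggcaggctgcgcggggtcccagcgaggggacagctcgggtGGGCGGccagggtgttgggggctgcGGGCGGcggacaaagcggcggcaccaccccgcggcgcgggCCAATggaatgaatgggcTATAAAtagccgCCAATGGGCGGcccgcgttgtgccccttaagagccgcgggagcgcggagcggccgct
The CKB window held 4 GC boxes, 2 CCAAT and 1 TATAAA, with one CCAAT directly beside a GC box, and 0 AAGGTCA. The CKMT1B window held 1 GC box and none of the others, while the window before an upstream start of CKMT1B (chr15:43592607-43592856) held 1 AAGGTCA. Windows of CKMT1A at chr15:43692536-43692785 and chr15:43693183-43693432 also held 1 AAGGTCA each, so this motif was not particular to CKMT1B. Among 35116 promoters of this length, 42.6% held GGGCGG, 32.0% CCAAT, 10.7% TATAAA and 3.44% AAGGTCA. Stretches of the copies that run from 250 bases before to 50 bases after a RefSeq start were also laid over each other. All 275 overlapping bases were identical around the start shown, and all 203 around the upstream one. A match is a description of letters only. RefSeq windows were found for 7 of the 8 genes, all but GAMT.

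Measured per length, the creatine genes fell into 3 levels. In TPM, the authors' values scaled by gene length to a sum of 1000000, CKB came first in all 6 libraries with 199 to 266, then GAMT with 184 to 245 and SLC6A8 with 37.7 to 43.9. CKMT1B, CKMT2 and CKMT1A lay between 0.818 and 4.23 TPM, and GATM and CKM between 0.129 and 0.579 TPM. Among the tested genes, 95.4% had a lower mean TPM than CKB, 94.8% a lower one than GAMT and 74.8% a lower one than SLC6A8. The same share was 21.6% for CKMT1B, 18.9% for CKMT2, 17.4% for CKMT1A, 4.19% for GATM and 3.67% for CKM. The first 3 places kept their order in every library. CKB and GAMT were close to each other, and the mitochondrial kinases changed places among libraries, with CKMT1B the highest of them in each PRDM16 library and in no NC library. GATM and CKM also changed places.

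**Figure D1:**
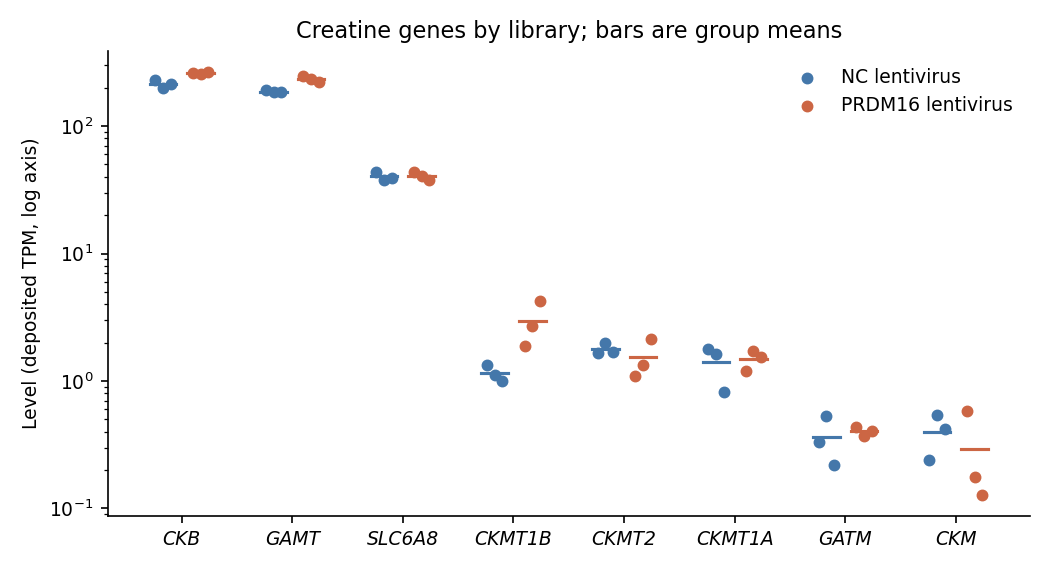
Level of each of the 8 creatine genes in deposited TPM (log axis) in the 3 NC and 3 PRDM16 libraries, with points for libraries and bars for group means. CKB, GAMT and SLC6A8 lie at or above 37.7 TPM in every library and the other 5 genes at or below 4.23 TPM, and CKMT1B shows the widest gap between the groups.

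Of the 7 tested genes, 1 passed the quasi-likelihood test of edgeR at a Benjamini-Hochberg adjusted p of 0.05, CKMT1B, higher with PRDM16, as did 0.0585% of all tested genes in that direction and 0.0650% in either. At an unadjusted edgeR p under 0.05 there were 3 of the 7, all higher, against 9.23% of all tested genes in that direction and 16.0% in either. In 3 of the 7 (CKMT1B, CKB and GAMT) every PRDM16 library exceeded every NC library in CPM, against 12.2% of all tested genes in that direction and 21.0% in either, and in 0 of the 7 every one lay below. Fold changes of 6 of the 7 were above 0. Their median log2 fold change was 0.25, against -0.02 over all genes tested. With the trend of fold changes along gene length and GC content taken out, these medians were 0.08 and 0.0034. The choice of the family used this contrast, so nothing is read from these counts.

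Transcripts of the enzymes of creatine synthesis were uneven in these cells, with much GAMT and little GATM. GATM, which makes guanidinoacetate, lies on chromosome 15 at 45361124 to 45402227 (minus strand). It had 8, 15 and 5 counts in the NC libraries, or 0.347, 0.521 and 0.240 CPM, and 10, 12 and 18 counts in the PRDM16 libraries, or 0.521, 0.431 and 0.430 CPM. The groups overlapped, with NC library 2 as high as the highest PRDM16 library. The means were 0.369 ± 0.142 CPM in the NC group and 0.461 ± 0.0521 in the PRDM16 group (SD, n = 3), with a log2 fold change at 0.25 ± 0.40 (SE), which missed the threshold (edgeR adjusted p = 0.737). It was 0.05 without NC library 3, and without NC library 2 the gene fell under the filter. With 5 to 18 counts per library, a difference of this size was not detectable.

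GAMT, which turns guanidinoacetate into creatine, lies on chromosome 19 at 1397026 to 1401542 (minus strand). Its level was 147, 135 and 149 CPM in the NC libraries and 219, 204 and 174 CPM in the PRDM16 libraries. Every PRDM16 library exceeded every NC library, with PRDM16 library 3 the lowest of its group. The mean went from 144 ± 7.84 to 199 ± 22.8 CPM (SD, n = 3), with a log2 fold change at 0.47 ± 0.12 (SE), which missed the threshold in edgeR (adjusted p = 0.160). It passed in DESeq2 (adjusted p = 0.0319) and in edgeR with no count filter (adjusted p = 0.0281). GAMT has a GC content of 61.2%, above that of 87.1% of tested genes with a value, and with the length and GC trend removed its log2 fold change was 0.23 ± 0.08 (edgeR adjusted p = 0.724). Its neighbour NDUFS7, a subunit of respiratory complex I, had a log2 fold change of 0.44 ± 0.12 that did not pass either (edgeR adjusted p = 0.222). Per length, GAMT stood 347- to 832-fold above GATM in TPM, with the lowest ratio in NC library 2 and the highest in NC library 3, so both ends of the range came from NC libraries and from 15 and 5 counts of GATM.

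SLC6A8, the creatine transporter of the plasma membrane, lies on chromosome X at 153687926 to 153696593 (plus strand). Its level was 61.8, 50.3 and 57.7 CPM with NC and 71.5, 63.5 and 54.7 CPM with PRDM16. The groups overlapped, since PRDM16 library 3 lay below NC libraries 1 and 3. Means were 56.6 ± 5.85 and 63.2 ± 8.41 CPM (SD, n = 3), with a log2 fold change at 0.16 ± 0.12 (SE), which missed the threshold (edgeR adjusted p = 0.469). With the length and GC trend removed the log2 fold change was -0.016 ± 0.083, so its sign depended on that step. It was 0.08 without NC library 2 and 0.06 without PRDM16 library 1.

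CKB, the cytosolic kinase also known as the brain form, lies on chromosome 14 at 103519667 to 103522833 (minus strand). Its level was 121, 98.6 and 117 CPM in the NC libraries and 157, 148 and 142 CPM in the PRDM16 libraries. Every PRDM16 library exceeded every NC library, and NC library 2 was the lowest of the 6. The mean was 112 ± 11.9 CPM in the NC group and 149 ± 7.32 in the PRDM16 group (SD, n = 3), with a log2 fold change at 0.41 ± 0.11 (SE), which missed the threshold in edgeR (adjusted p = 0.222). CKB is among the genes richest in G and C, with a GC content of 69.6% where the median tested gene had 50.2%, and 99.6% of tested genes with a value had less. With the length and GC trend removed its log2 fold change was 0.0040 ± 0.070 (SE), so little of the difference was left once the trend shared with genes of its length and composition was taken out.

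CKB supplied 97.1% to 98.2% of all creatine kinase transcript by TPM in every library. Per length it stood 46.2- to 118-fold above the CKMT1 pair, with the lowest ratio in PRDM16 library 3 and the highest in NC library 3. How reads that match both CKMT1 copies were counted is not given. Any left uncounted would lower the level of the pair and raise the CKB share and ratio. CKM, the cytosolic kinase of muscle on chromosome 19 at 45306413 to 45322875 (minus strand), had 3, 8 and 5 counts with NC and 7, 3 and 3 with PRDM16. It was at or near the floor of 3 counts in every library and was not tested.

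**Figure D2:**
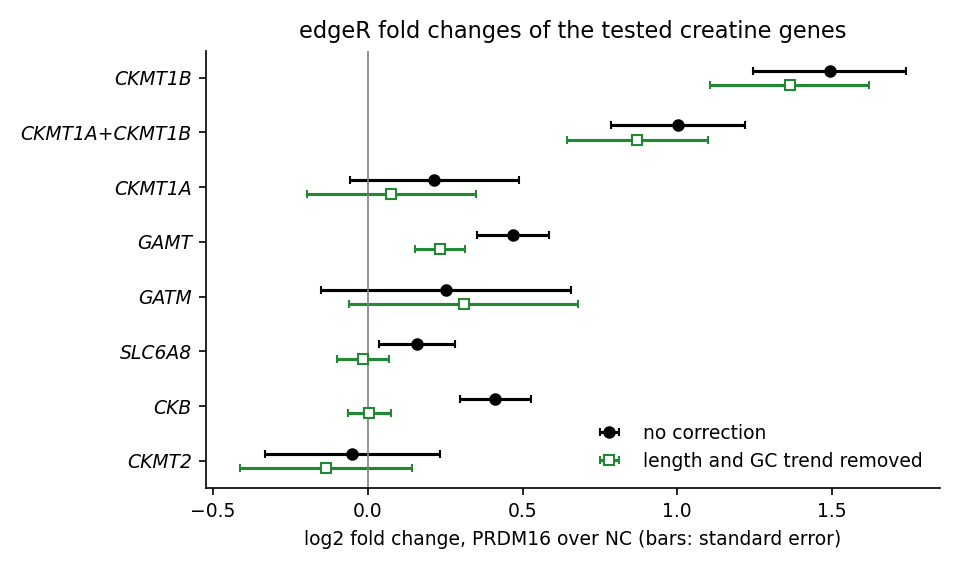
Log2 fold change (PRDM16 over NC) of the 7 tested creatine genes and of the summed CKMT1 pair, with standard errors as bars, without correction (filled) and with the length and GC trend removed (open). With the trend removed CKMT1B is at 1.36 (edgeR adjusted p = 0.305), the pair at 0.87 (edgeR adjusted p = 0.700) and CKB at 0.0040, and none of these passes.

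CKMT1B had 35, 35 and 25 counts in the NC libraries and 48, 97 and 208 in the PRDM16 libraries. These are 1.52, 1.21 and 1.20 CPM with NC and 2.50, 3.48 and 4.97 CPM with PRDM16. All PRDM16 libraries were above all NC libraries. The PRDM16 libraries differed among themselves by more than the NC libraries did, and the highest was library 3, the deepest of the series. The mean was 1.31 ± 0.181 CPM in the NC group and 3.65 ± 1.24 in the PRDM16 group (SD, n = 3), a ratio of 2.78 and a log2 fold change of 1.49 ± 0.25 (SE). Without PRDM16 library 3 the log2 fold change was 1.19 ± 0.27 and the call was lost (edgeR adjusted p = 0.0962). CKMT1B passed in 8 of 14 alternatives, and the call was lost among others without NC library 1 (1.61, edgeR adjusted p = 0.0540), without NC library 2 (1.45, edgeR adjusted p = 0.117), in limma-voom (1.49, adjusted p = 0.345) and with the length and GC trend removed (1.36, edgeR adjusted p = 0.305).

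CKMT1A had 37, 40 and 16 counts with NC and 24, 48 and 59 with PRDM16, or 1.61, 1.39 and 0.768 CPM and 1.25, 1.72 and 1.41 CPM. The groups overlapped, with NC library 3 the lowest and NC library 1 second to PRDM16 library 2. Its mean was 1.25 ± 0.435 and 1.46 ± 0.241 CPM (SD, n = 3), with a log2 fold change at 0.21 ± 0.27 (SE), which missed the threshold (edgeR adjusted p = 0.667). Without NC library 3 it was -0.02 ± 0.30. The difference between the fold changes of the copies was not tested in the fit, because the reads of one can be counted for the other.

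The sum of the copies is free of how the counted reads were divided between them, but not of reads left uncounted because they match both. It came to 72, 75 and 41 counts with NC and 72, 145 and 267 with PRDM16, or 3.13, 2.60 and 1.97 CPM and 3.75, 5.21 and 6.38 CPM. In CPM every PRDM16 library exceeded every NC library, by a narrow margin between PRDM16 library 1 and NC library 1. In the deposited TPM the groups overlapped, with PRDM16 library 1 at 3.09 and NC library 1 at 3.11. The mean went from 2.57 ± 0.580 to 5.11 ± 1.32 CPM (SD, n = 3), a ratio of 1.99 and a log2 fold change of 1.0 ± 0.22 (SE). In the edgeR fit with the copies summed this did not pass (adjusted p = 0.105), unlike CKMT1B alone. It did pass without NC library 3 (0.85, edgeR adjusted p = 0.0258), PRDM16 library 1 (1.17, edgeR adjusted p = 0.00556) or PRDM16 library 2 (1.0, edgeR adjusted p = 0.0119), with no count filter (1.02, edgeR adjusted p = 0.00112), and with repeat listings of a symbol summed (1.01, edgeR adjusted p = 0.0406).

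**Figure D3:**
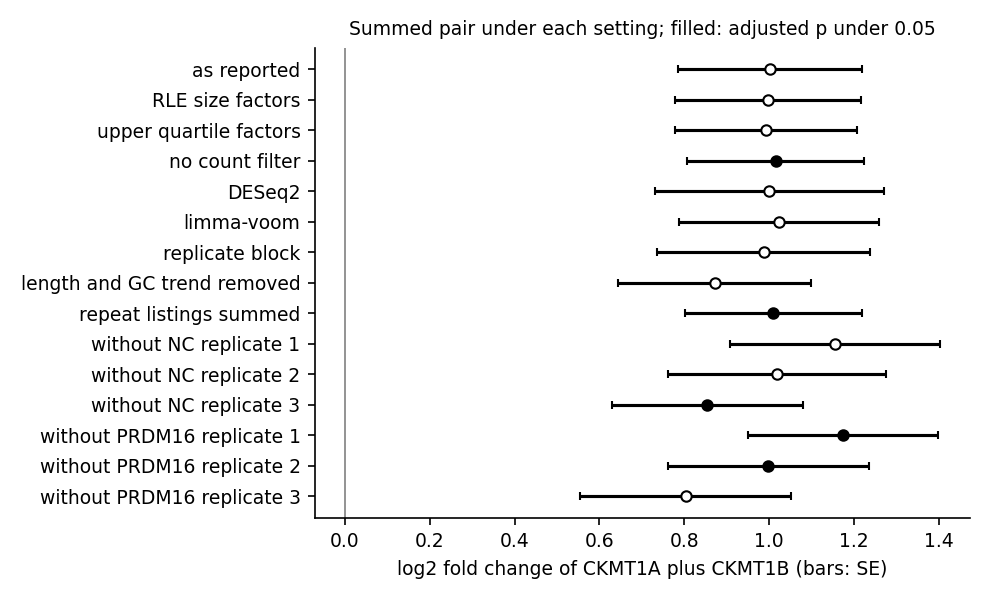
Log2 fold change of CKMT1A plus CKMT1B with its standard error under each of the settings tried, filled where the adjusted p was under 0.05. The value lies between 0.80 and 1.17 throughout, and 5 of the 14 alternatives are filled.

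The division of counts between the copies differed in its mean between the groups. CKMT1B held 48.6%, 46.7% and 61.0% of the counts of the pair in the NC libraries and 66.7%, 66.9% and 77.9% in the PRDM16 libraries. The exact (Clopper-Pearson) 95% intervals were 36.7% to 60.7%, 35.1% to 58.6% and 44.5% to 75.8% with NC. They were 54.6% to 77.3%, 58.6% to 74.5% and 72.4% to 82.7% with PRDM16, and the interval of NC library 3 overlapped all 3 of these. The means were 52.1% ± 7.76 and 70.5% ± 6.42 (SD, n = 3), a difference of 18.4 percentage points. Each PRDM16 library had a larger share than each NC library, the nearest being PRDM16 library 1 at 66.7% and NC library 3 at 61.0%. The exact two-sided permutation test gave p = 0.1, the smallest that the 20 arrangements of 3 against 3 allow, so this design cannot reach 0.05. The listed length of CKMT1B is 56.1% of the length of the pair. The share rests on the same counts of CKMT1B that brought the family forward and is no independent support for its difference.

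**Figure D4:**
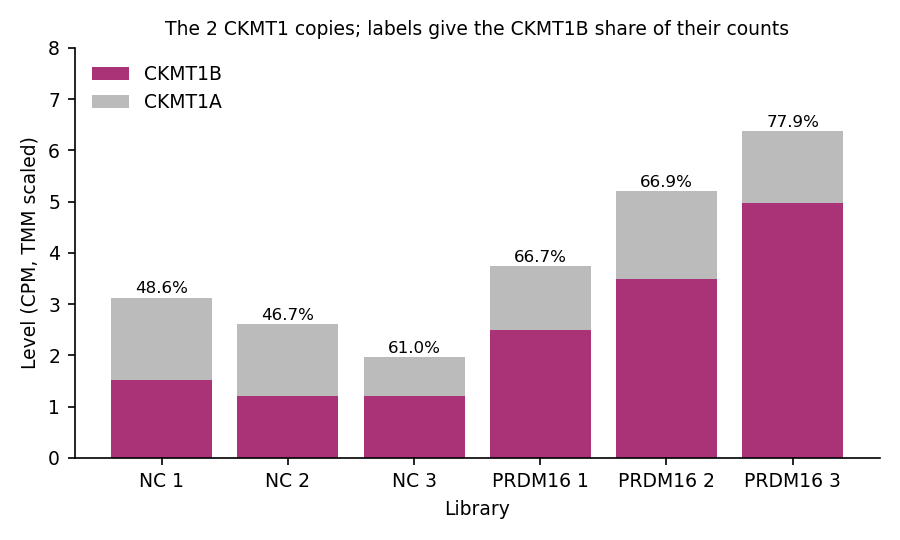
Level of CKMT1B and CKMT1A, stacked, in CPM scaled by TMM factors in each of the 6 libraries, with the CKMT1B share of their counts in percent above each bar. The CKMT1A part lies between 0.768 and 1.72 CPM in every library, and the CKMT1B part is between 1.20 and 1.52 CPM with NC and between 2.50 and 4.97 CPM with PRDM16.

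CKMT2, the mitochondrial kinase of striated muscle, lies on chromosome 5 at 81233322 to 81266398 (plus strand). It had 22, 31 and 21 counts with NC and 14, 24 and 53 with PRDM16, or 0.955, 1.08 and 1.01 CPM and 0.729, 0.862 and 1.27 CPM. The groups overlapped, with PRDM16 libraries at both ends. The means were 1.01 ± 0.0604 and 0.952 ± 0.280 CPM (SD, n = 3), with a log2 fold change at -0.05 ± 0.28 (SE), which missed the threshold (edgeR adjusted p = 0.932). Its sign changed when single libraries were left out. An antisense gene, CKMT2-AS1, overlaps it on the minus strand, with 5.27 ± 0.538 CPM in the NC group and 4.38 ± 0.279 in the PRDM16 group (log2 fold change -0.26 ± 0.17, edgeR adjusted p = 0.399). The strand setting of the counting is not given in the sources used here, so reads in the shared span cannot be assigned to either gene with certainty.

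Around the CKMT1 copies, the tested genes had log2 fold changes between -0.56 and 0.25. Of 15 listed neighbours found, 13 were tested and 0 passed in edgeR, DESeq2 or limma-voom, with 3 of the 13 at an unadjusted edgeR p under 0.05, 1 higher and 2 lower, against 16.0% of all tested genes. Their fold changes were above 0 in 3 and below 0 in 10, with a median of -0.13. The smallest p-values belonged to TP53BP1, a DNA repair protein (log2 fold change -0.33 ± 0.13), and CATSPER2, a sperm ion channel subunit between the copies (-0.56 ± 0.24, edgeR adjusted p = 0.298 for each). CATSPER2 had 1.69, 3.05 and 2.06 CPM with NC and 1.51, 1.51 and 1.62 CPM with PRDM16, so that NC library 2 stood above the rest, and without it the log2 fold change was -0.27. PPIP5K1, an inositol phosphate kinase next to CKMT1B, was at -0.13 ± 0.13 (edgeR adjusted p = 0.591). STRC, the stereocilin gene that follows CKMT1B, had 1 to 3 counts in every library and was not tested. STRC, CATSPER2 and PPIP5K1 also have copies in the duplicated segment (STRCP1, CATSPER2P1 and PPIP5K1P1). None of these copies was among the 15 neighbours found, so no counts are given for them. How reads that match both a gene and its copy were handled is not given, which limits the values of STRC, CATSPER2 and PPIP5K1.

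**Figure D5:**
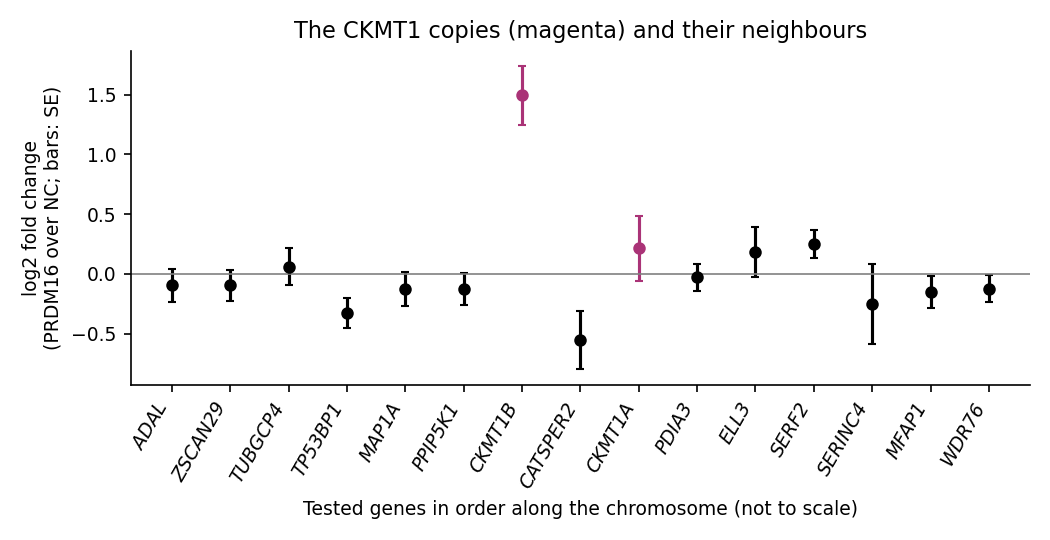
Log2 fold change (PRDM16 over NC) with its standard error for the tested genes around the CKMT1 copies, in their order along chromosome 15 and not to scale. CKMT1B stands at 1.49, CKMT1A at 0.21 and the 13 other genes between -0.56 and 0.25.

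Genes that make, carry or use the precursors of creatine had 0 members past the threshold in edgeR, DESeq2 or limma-voom. Of 13 tested genes of arginine metabolism and transport, 8 were above 0 and 5 below, with a median log2 fold change of 0.06. At an unadjusted edgeR p under 0.05 there were 3 of the 13 (2 higher, 1 lower), against 16.0% of all tested genes. The smallest p-values were those of the cationic amino acid transporter SLC7A2 and of ASL, argininosuccinate lyase. SLC7A2 had 19.0, 25.0 and 20.2 CPM with NC and 16.2, 14.5 and 19.7 CPM with PRDM16 (-0.35 ± 0.14, -0.21 without NC library 2, and -0.12 with the length and GC trend removed). ASL had 61.9, 55.3 and 59.0 CPM with NC and 75.3, 70.4 and 67.6 CPM with PRDM16 (0.28 ± 0.11, and 0.03 with the trend removed, edgeR adjusted p = 0.298 for each gene before the removal). The groups of ASL did not overlap, as in 12.2% of all tested genes in that direction, and those of SLC7A2 did. Of 11 tested listings of glycine metabolism and transport, 7 were above 0 and 4 below, with a median of 0.08. At an unadjusted edgeR p under 0.05 there were 2 of the 11, both higher, against 9.23% of all tested genes in that direction. These were SHMT1-2 and PHGDH. SHMT1-2, a second listing of the cytosolic serine hydroxymethyltransferase gene, stood at 0.721 ± 0.355 and 1.16 ± 0.255 CPM (SD, n = 3; 0.72 ± 0.32, edgeR adjusted p = 0.301). PHGDH, the first enzyme of serine synthesis, stood at 353 ± 28.4 CPM in the NC group and 422 ± 56.8 in the PRDM16 group (0.26 ± 0.12, edgeR adjusted p = 0.311).

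GAMT draws on S-adenosylmethionine. Of 12 tested genes of the methyl donor cycle, 4 were above 0 and 8 below, with a median log2 fold change of -0.07. In edgeR, DESeq2 or limma-voom 0 passed the threshold. At an unadjusted edgeR p under 0.05 there was 1 of the 12, higher, against 9.23% of all tested genes in that direction. PEMT, a methyltransferase that makes phosphatidylcholine, had 26.6, 25.4 and 28.3 CPM with NC and 36.6, 33.6 and 32.4 CPM with PRDM16. Its groups did not overlap, as in 12.2% of all tested genes in that direction. Its log2 fold change of 0.35 ± 0.12 (edgeR adjusted p = 0.288) was 0.05 with the length and GC trend removed. MTR, methionine synthase, was at 59.3 ± 13.6 and 48.4 ± 5.09 CPM (-0.29 ± 0.14, edgeR adjusted p = 0.315), and at -0.08 without NC library 2.

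A further list held the adenylate and nucleoside diphosphate kinases, which pass phosphates among nucleotides. It also held the carriers that exchange ATP for ADP across the mitochondrial membrane and the VDAC pores of the outer mitochondrial membrane. Of the 17 tested listings of this list 14 were above 0 and 3 below, with a median log2 fold change of 0.12. In edgeR, DESeq2 or limma-voom 0 passed. At an unadjusted edgeR p under 0.05 there were 4 of the 17 (3 higher, 1 lower), against 16.0% of all tested genes. NME3 had 12.6, 12.8 and 15.1 CPM with NC and 19.8, 17.9 and 16.4 CPM with PRDM16, and NME4, its mitochondrial relative, 4.86, 4.20 and 4.99 CPM and 6.46, 7.40 and 5.73 CPM. In these nucleoside diphosphate kinases the groups did not overlap, as in 12.2% of all tested genes in that direction. Their log2 fold changes were 0.42 ± 0.13 and 0.48 ± 0.17 (edgeR adjusted p = 0.276 and 0.291), and -0.0017 and 0.23 with the length and GC trend removed.

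Among other transporters of creatine and its relatives, 5 were tested and 0 passed in edgeR, DESeq2 or limma-voom. At an unadjusted edgeR p under 0.05 there were 0 of the 5, against 16.0% of all tested genes. SLC16A12, a creatine carrier of the kidney and lens, was at 33.7 ± 4.63 CPM in the NC group and 29.4 ± 0.845 in the PRDM16 group (SD, n = 3; log2 fold change -0.20 ± 0.13, edgeR adjusted p = 0.393). This was -0.09 without NC library 2 and -0.04 with the length and GC trend removed. SLC6A7, a proline transporter of the same family as SLC6A8, was at 1.03 ± 0.313 and 1.11 ± 0.0365 CPM. Of 12 tested regulators of energy state, 4 were above 0 and 8 below, with a median of -0.12, and 0 passed in edgeR, DESeq2 or limma-voom, with 2 of the 12 at an unadjusted edgeR p under 0.05, against 16.0% of all tested genes. These were PRKAA2, a catalytic subunit of the energy sensor AMPK, with 40.6, 58.5 and 40.3 CPM with NC and 36.2, 30.5 and 40.0 CPM with PRDM16, and STK11, the kinase that activates AMPK, with 152 ± 25.8 and 184 ± 18.2 CPM (0.28 ± 0.13, edgeR adjusted p = 0.302, and 0.06 with the length and GC trend removed). PRKAA2 was at -0.39 ± 0.15 (edgeR adjusted p = 0.298), at -0.18 without NC library 2, the highest library, and at -0.07 with the length and GC trend removed.

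The genes with the profile most like that of the CKMT1 pair were sought among 10841 genes of at least 5 CPM, by the root mean square difference of centred log2 CPM over the 6 libraries. The nearest were U2AF1L5 (0.301), LY6E (0.311), NUDT8 (0.312), ABALON (0.324) and OVCA2 (0.325). U2AF1L5, a near copy of the splicing factor U2AF1, had 5.47, 4.93 and 5.90 CPM with NC and 6.09, 12.7 and 11.7 CPM with PRDM16. LY6E, an anchored surface protein, had 49.4, 32.2 and 36.4 CPM with NC and 53.6, 50.8 and 67.5 CPM with PRDM16. In OVCA2, a serine hydrolase, PRDM16 library 1 was instead the highest, at 12.3 CPM, where the NC libraries had 7.43, 6.18 and 7.34 CPM.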

How the data were processed

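Polyadenylated RNA of 6 samples was fragmented, copied with random hexamers, amplified by PCR and sequenced, per the labels' protocols. Groups and replicate numbers came from the titles. For each library the authors deposited read counts, TPM and FPKM per gene, per the file headers, with exon positions and lengths. The deposited FPKM values followed from the counts, lengths and totals and were not used further. Genome build hg38 is named in the submitters' processing notes. Which aligner, counter, strand setting and annotation were used is not given in the sources used here. Lines of 7 genes were broken in the files and were rejoined.

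Genes were tested with edgeR 4.0.16 in R 4.3.3 (robust quasi-likelihood test, TMM factors, filterByExpr with minimum count 10 and minimum total 15), adjusted over all 15381 genes. CPM are TMM-scaled, and the common coefficient of variation was 0.146. Standard errors are the absolute log2 fold change over the root of F. The copies CKMT1A and CKMT1B were also summed to 1 row in the same table. The script was tested on simulated data. DESeq2 1.42.0, limma-voom (limma 3.58.1), other scalings, no filter, repeat listings of a symbol summed, single libraries left out, a replicate block, and offsets removing the trend along length and GC content (natural splines, 5 degrees of freedom; GC known for 90.3% of tested genes) were alternatives. Every pair of libraries differed by more than sampling noise.

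The members, the gene lists and the lists of markers were chosen with earlier results of these data known. Named are all members, for each pathway list the 2 tested genes with the smallest p, the genes in the duplicated segment of chromosome 15, and the 5 nearest profiles. Proximal tubule markers at 0 counts, CD2AP, CKMT2-AS1 and NDUFS7 were added after their values were seen. Sequences are from GENCODE v29 and RefSeq. One marker gene is not reported here.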

Additional observations from a re-analysis of the deposited data

How the results depend on the processing

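The log2 fold change of CKMT1B was positive in all 14 alternatives (1.19 to 1.69, adjusted p 1.2e-06 to 0.345) and passed in 8, and that of the summed pair was positive in all 14 (0.80 to 1.17, adjusted p 0.00112 to 0.700) and passed in 5. The pair passed with no count filter (1.02), with repeat listings summed (1.01, edgeR adjusted p = 0.0406) and in 3 of the fits that left out a library (range over these fits 0.80 to 1.17). Creatine genes past the threshold numbered 2 with no count filter and in DESeq2 (CKMT1B and GAMT), 0 in limma-voom, with the length and GC trend removed and in the replicate block, and 0 to 1 with single libraries left out. Over all genes 10 passed, against 107 with no count filter, 41 in DESeq2, 4 in limma-voom, 5 with the trend removed, 18 with repeat listings summed and 7 to 173 with single libraries left out. With the replicate number as a block, 10 genes passed, CKMT1B had a log2 fold change of 1.44 (edgeR adjusted p = 0.0716) and the pair 0.99 (edgeR adjusted p = 0.263). Same-numbered libraries correlated at 0.0945, -0.104 and -0.131 in their deviations from the group means, so the numbers gave no sign of pairing. Signs changed for SLC6A8 with the trend removed (-0.016), for CKMT1A without NC library 3 (-0.021; 0.41 at most without another library), and for CKMT2 without NC library 2 (0.0070), PRDM16 library 1 (0.087) or PRDM16 library 2 (0.037), against -0.34 at the lowest, without PRDM16 library 3. The cause of these changes was not tested. The difference in CKMT1B share was 14.7 to 22.8 points with single libraries left out and 19.2 by TPM. Low counts limit CKMT1A, CKMT2, GATM and CKM in every library, and CKMT1B, with 25 to 48 counts in 4 of the 6.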

Other observations

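Listings of a gene at several places in the tables held single libraries that stood far from the others, and are named here after their values were seen. SHMT1, the cytosolic enzyme that makes glycine from serine, had 101, 649 and 94 counts in the NC libraries and 87, 128 and 282 in the PRDM16 libraries, or 4.39, 22.5 and 4.51 CPM and 4.53, 4.60 and 6.74 CPM. NC library 2 alone stood high. Its log2 fold change was -0.99 ± 0.82 (edgeR adjusted p = 0.544), and 0.27 without that library. The second listing of the gene, SHMT1-2, had 1.13, 0.555 and 0.480 CPM with NC and 0.885, 1.22 and 1.39 CPM with PRDM16 and was not high in NC library 2. AK6-2, the second listing of an adenylate kinase of the nucleus, had 9, 14 and 9 counts with NC and 168, 6 and 32 with PRDM16, so that PRDM16 library 1 alone stood high. The cause of either value was not tested.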
